A study of Mus musculus with 6 samples.

Results

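The tetraspanins examined here are 27 genes of 21124 named genes measured in a mouse ovarian cell line. A gene was taken as a tetraspanin when its symbol began with Tspan and a number, or was Cd9, Cd37, Cd53, Cd63, Cd81, Cd82 or Cd151, so membership rests on names. Together they have 28 transcript clusters on the array, and the cluster of Cd151, the gene with 2, was chosen by its higher mean level over the 6 arrays. The family as a whole was picked with the rise of Tspan18 already known. The values of Tspan18 are therefore given as a description, with no p or call, and counts of called genes cover the other 26 tetraspanins. Those members were also chosen with earlier results of these data known.

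The study transfected B/CMBA.ov cells, a line from the ovary of BALB/c mice, with 1 of 2 synthetic small RNAs. RNA of cells given a miR-15a-3p mimic was read on 3 arrays, and RNA of cells given a negative control mimic on 3 others. Both groups were given 20 nM of the mimic with a lipid reagent, RNA was taken 48 h later, and total RNA was amplified over whole transcripts and labelled with biotin before hybridisation. The comparison asks what the microRNA changes in the transcriptome of these cells, and no untransfected cells were part of it. All cells are of 1 line. Since the labels do not tell whether replicates were grown as separate cultures, p-values describe the scatter among these 6 arrays, which could be technical, and so few arrays limit the precision.

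Tetraspanins are small membrane proteins that pass through the membrane several times and carry a large extracellular loop. They gather integrins, proteases, receptors and each other into patches of the membrane, and several are abundant on exosomes. MicroRNAs pair with messenger RNAs mainly through their seed, the bases near their 5′ end, and lower the level or the translation of those messengers.

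The mimic carries the sequence cut from the 3′ side of the precursor of miR-15a, which is shown because its seed differs from that of the better known miR-15 and miR-16 family. The capitals mark the seed, bases 2 to 8, in the RefSeq sequences of GRCm38.p6. The strand is minus for all 3, at chr14:61632038-61632059 for miR-15a-3p, chr14:61632075-61632096 for miR-15a-5p and chr14:61631936-61631957 for miR-16-5p.
mmu-miR-15a-3p: cAGGCCAUacugugcugccuca
mmu-miR-15a-5p: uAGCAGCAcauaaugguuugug
mmu-miR-16-5p: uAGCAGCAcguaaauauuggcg
Of 1679 mature mouse microRNA names in the table, 1 has the seed of miR-15a-3p, namely miR-15a-3p itself, while 10 have the seed that miR-15a-5p shares with miR-16-5p. Target sites in the tetraspanin messengers were not analysed here.

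The tetraspanins moved in both directions, and the larger changes were rises. Tspan18 aside, 7 of 26 genes were higher with the miR-15a-3p mimic than with the control mimic and 2 were lower, at a limma p adjusted over all 21124 genes under 0.05. Among all genes, 6.09% were called higher and 5.63% lower by the same rule, 11.7% in either direction. The risen genes were Tspan8, Tspan13, Tspan1, Tspan7, Tspan2, Tspan15 and Cd82, and the fallen genes were Cd81 and Cd53. Of the 26, 4 changed by 1.5-fold or more, all of them upwards, against 1.80% of all genes in either direction. As the members were chosen with earlier results known, these counts and shares describe the family and are not a test of it. The median log2 fold change of the 26 genes was 0.06, beside 0.01 for all genes, and 15 of them had a value above 0 and 11 below. A mean log2 value of at least 6 was found for 25 of the 27 genes, and 21 reached 7.27, the median over all genes. In the brighter part of all genes, from that median upwards, 19.2% were called.

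**Figure D1:**
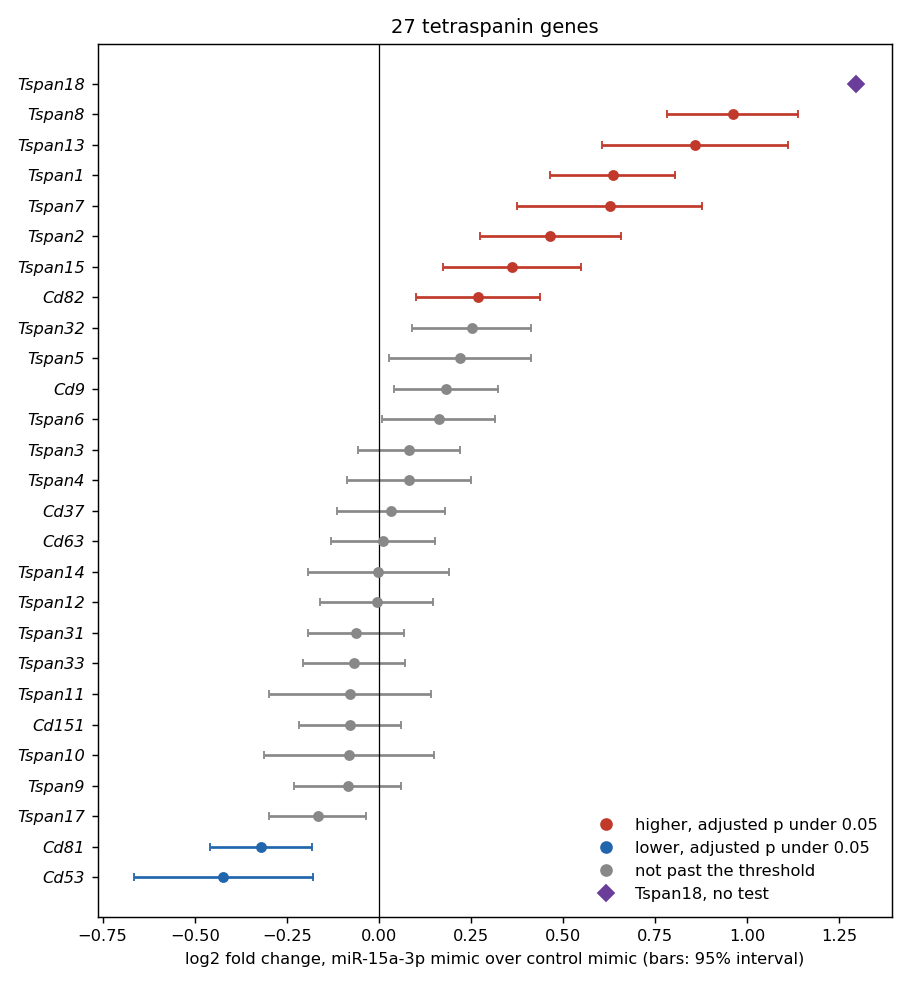
Log2 fold change (miR-15a-3p mimic over control mimic, 3 arrays each) of the 27 tetraspanin genes, with limma's 95% interval. Red points are higher and blue points lower at an adjusted p under 0.05, grey points did not pass, and the purple diamond is Tspan18 at 1.30, with no test or interval. The 7 red genes run from 0.96 for Tspan8 to 0.27 for Cd82, and the 2 blue genes are Cd81 at -0.32 and Cd53 at -0.42.

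Tspan18 had the largest fold change of the family. In human endothelial cells this protein associates with the store-operated calcium channel Orai1. Its log2 values were 7.61, 7.55 and 7.48 with the miR-15a-3p mimic, against 6.09, 6.18 and 6.50 with the control mimic. The 3 mimic arrays lay close together and far above all control arrays, among which replicate 3 was the highest. The ratio of mimic to control was 2.46, and 10 of the 21124 genes had a larger rise, so that Tspan18 ranked 11 by fold change.

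Tspan8 and Tspan13 followed. Tspan8 is a surface protein of epithelial and tumour cells that is also found on exosomes. It had log2 values of 9.65, 9.69 and 9.72 with the mimic, against 8.56, 8.83 and 8.78 with the control. Its ratio was 1.95 (95% interval 1.72 to 2.20) or 0.96 ± 0.08 on the log2 scale (SE; adjusted p = 0.00013 by limma), and it ranked 26 among all rises. Tspan13, known in human cells as NET-6, had 9.67, 9.75 and 9.68 with the mimic, against 8.54, 9.02 and 8.95 with the control. The mimic arrays of both genes differed by little, while control replicate 1 lay below the other controls. The ratio of Tspan13 was 1.81 (1.52 to 2.16), or 0.86 ± 0.11 on the log2 scale (SE; adjusted p = 0.0013 by limma). Without control replicate 1 the log2 fold change of Tspan13 was 0.71, still past the threshold.

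Tspan1, Tspan7 and Tspan2 rose by smaller amounts. Tspan1, an epithelial tetraspanin, had log2 values of 6.23, 6.22 and 6.45 with the mimic, against 5.63, 5.68 and 5.69 with the control. The groups were well apart, but the gene was dim, with a mean of 5.98, and no detection call came with the values. Its ratio was 1.55 (limma adjusted p = 0.00076). Tspan7, which in neurons takes part in the trafficking of glutamate receptors, had 10.67, 10.26 and 10.37 with the mimic, against 9.64, 9.89 and 9.89 with the control. Here mimic replicate 1 was the highest of the 6 arrays and control replicate 1 the lowest. Its ratio was 1.54 (limma adjusted p = 0.0062), and its log2 fold change of 0.63 was 0.51 without mimic replicate 1. Tspan2, which is found in myelin-forming oligodendrocytes, had 7.71, 7.66 and 7.74 with the mimic, against 7.07, 7.40 and 7.23 with the control (ratio 1.38, limma adjusted p = 0.0071). The calls of Tspan8, Tspan13, Tspan1, Tspan7 and Tspan2 held with any 1 array left out.

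**Figure D2:**
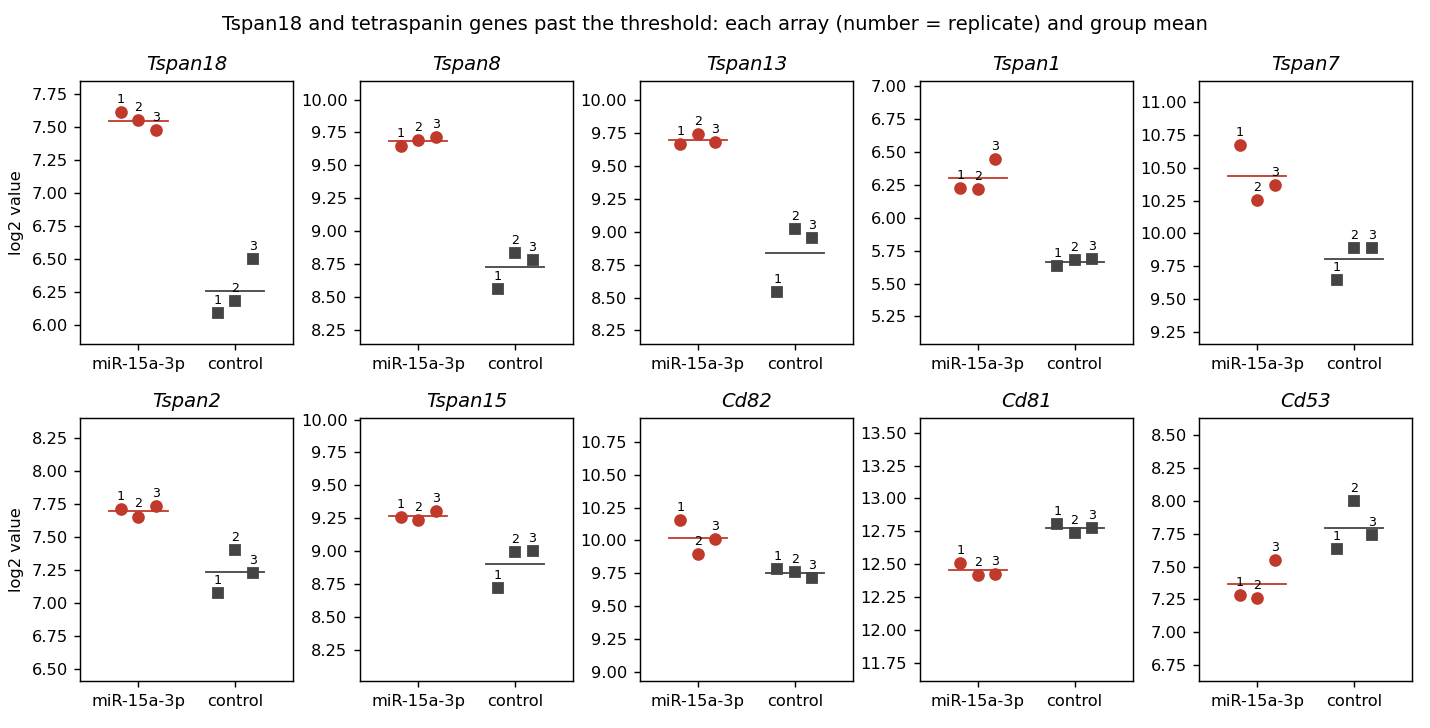
Log2 value of Tspan18 and of the 9 tetraspanin genes past the threshold on each array, miR-15a-3p mimic (red circles) beside control mimic (grey squares), with the replicate number above each point and a line at the group mean. Every panel spans 2 log2 units. The groups do not overlap in any panel, and in 6 of the 7 genes called higher, control replicate 1 is the lowest control.

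In Tspan18 and in 6 of the 7 tetraspanins called higher, all but Cd82, control replicate 1 was the lowest of the control arrays. That was also so for 63.0% of all 1286 risen genes and for 37.9% of all genes. Without that array the log2 fold changes were 1.21 for Tspan18, 0.88 for Tspan8, 0.71 for Tspan13, 0.62 for Tspan1, 0.54 for Tspan7, 0.39 for Tspan2 and 0.27 for Tspan15, and those of the last 6 still passed. For Cd82 the value was 0.29, which did not pass.

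Tetraspanins of the TspanC8 subgroup escort the protease ADAM10, which cuts cadherins, Notch receptors and other surface proteins, to the cell surface. Of the 6 members, 1 rose. Tspan15 had log2 values of 9.26, 9.24 and 9.31 with the miR-15a-3p mimic, against 8.72, 8.99 and 9.0 with the control mimic. All mimic arrays were above all controls, with control replicate 1 the lowest. Its log2 difference was 0.36 ± 0.08 (SE; adjusted p = 0.022 by limma), and the call was lost without mimic replicate 1 or mimic replicate 3 (adjusted p up to 0.074). Tspan5 had 0.22 (adjusted p = 0.15) and Tspan17 -0.17 (0.11), each with groups that did not overlap. Tspan14 (0.00), Tspan33 (-0.07) and Tspan10 (-0.08) had overlapping groups, and their 95% intervals lay within -0.31 to 0.19. Adam10 itself had log2 values of 11.48, 11.46 and 11.44 with the mimic and a mean of 11.29 with the control, a log2 fold change of 0.17 short of the threshold (adjusted p = 0.12 by limma). It passed in 2 of 14 alternatives, with another variance prior (0.011) and when genes at or above the median were tested alone (0.042). Adam10 passed in 0 of the 6 fits without 1 array, and its adjusted p was 0.24 with the replicate number as a block.

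Among the tetraspanins best known from integrin complexes and exosomes, Cd82 was higher and Cd81 lower. Cd81 is an entry factor of hepatitis C virus in humans. It had log2 values of 12.51, 12.42 and 12.43 with the mimic, against 12.81, 12.74 and 12.78 with the control. The arrays of each group were close together and the groups apart, at a ratio of 0.80 (95% interval 0.73 to 0.88; limma adjusted p = 0.0092). Without control replicate 3 the adjusted p was 0.051, with the log2 fold change of -0.32 little moved. Cd82, known as a suppressor of metastasis, had 10.15, 9.90 and 10.01 with the mimic, against 9.79, 9.76 and 9.71 with the control, a ratio of 1.20 close to the threshold (limma adjusted p = 0.048). This call was lost without any array but mimic replicate 2, with a log2 fold change of 0.20 without mimic replicate 1, the array that was highest.

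The other 3 genes of this kind did not pass. Cd9, needed on the egg for fusion with sperm, had 11.50, 11.40 and 11.40 with the mimic, against 11.24, 11.29 and 11.23 with the control. Its groups did not overlap, at a log2 fold change of 0.18 (95% interval 0.04 to 0.32; limma adjusted p = 0.10). Cd63, a marker of lysosomes and exosomes, had a log2 fold change of 0.01 (interval -0.13 to 0.15). Cd151, which binds laminin-binding integrins, had -0.08 (interval -0.22 to 0.06) with all mimic arrays below all controls, and its dimmer cluster, read by 1 probe set, had 0.07.

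Cd53, Cd37 and Tspan32 are tetraspanins of blood cells. Cd53 had log2 values of 7.28, 7.26 and 7.55 with the miR-15a-3p mimic, against 7.63, 8.0 and 7.74 with the control mimic. Mimic replicate 3 came close to control replicate 1, and the groups did not overlap. The ratio was 0.75 (95% interval 0.63 to 0.88; limma adjusted p = 0.033), and the call was lost without replicate 1 or 2 of the mimic and without replicate 2 or 3 of the control, the adjusted p reaching 0.12. Tspan32 had 6.24, 6.35 and 6.28 with the mimic, against 6.08, 6.12 and 5.92 with the control, which did not pass (log2 fold change 0.25, limma adjusted p = 0.053). Cd37 had a log2 fold change of 0.03 with overlapping groups. Of 7 leukocyte markers, 0 were called by limma, beside 11.7% of all genes. An unadjusted limma p under 0.05 was found for 0 of the 7, beside 5092 of all 21124 genes. The mean log2 value of the list lay between 5.94 and 6.03 on the mimic arrays and between 5.98 and 6.06 on the control arrays. The part of any blood cells in the level of Cd53 was not tested.

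The remaining tetraspanins did not pass. Tspan6 had a log2 fold change of 0.16 and Tspan3 of 0.08, both with all mimic arrays above all controls (adjusted p = 0.18 and 0.49). Tspan31, which is amplified in human sarcomas, had -0.06 with all mimic arrays below all controls (adjusted p = 0.60). Tspan4, a protein of migrasomes, had 0.08, Tspan12, a co-receptor for norrin, -0.01, Tspan11 -0.08 and Tspan9, found on platelets, -0.09, each with overlapping groups. Tspan18 aside, the 3 mimic arrays lay above the 3 controls in 12 of the 26 genes and below them in 5, while among all genes the shares were 16.4% and 13.2%, together 29.6%.

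The exon-level probe sets give a second view of the same hybridisations, not an independent one, and the deposited table may rest on 5 of the 6 arrays. The authors' deposited table holds 250 probe sets within the 27 clusters used, where 5.51% of all probe sets were higher and 6.44% lower with an unadjusted p under 0.05. For Tspan8, the authors' deposited table has 10 of 10 ratios above 1, from 1.17 to 3.07, and 8 with p under 0.05. For Tspan13 it has 6 of 6 above 1 and 4 with p under 0.05, and for Tspan7 9 of 9 above 1 and 4 with p under 0.05. For Tspan2 the authors' deposited table has 10 of 10 above 1 with 3 under 0.05, and for Tspan1 9 of 10 above 1 with 5 under 0.05. For the fallen genes, the authors' deposited table has 8 of 8 ratios below 1 for Cd81, of which 6 had p under 0.05, and 8 of 8 below 1 for Cd53, of which 3 did. The authors' separate list of falls holds 0 of the 250 tetraspanin probe sets, so none of Cd81 or Cd53. The cutoffs of that list were not examined here, so absence from it is not read as no change. The lowest ratios in the authors' deposited table were 0.71 for Cd81 and 0.57 for Cd53. Cd82 had 9 of 11 ratios above 1, with 2 under 0.05, in the authors' deposited table.

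Tspan18 and Tspan15 were uneven between their probe sets. In the authors' deposited table, the 10 Tspan18 probe sets with the lowest IDs had ratios from 1.47 to 13.9 with a median of 3.71, and the last 4 by ID had ratios from 0.73 to 1.39. This split by ID was made after the values were seen. The highest single ratios in that deposited table were 13.9, 12.0 and 10.3, beside 2.46 for the whole transcript cluster over all 6 arrays. For Tspan15 the authors' deposited table has 7 of 9 ratios above 1, with 2 higher at p under 0.05, while the probe set with the lowest ID had a ratio of 0.61 (p = 0.0030). Genes that were not called had uneven probe sets too. In the authors' deposited table, 1 of 3 Cd63 probe sets had a ratio of 1.57 (p = 0.0019), beside 0.94 and 0.92 for the others. At p under 0.05 that deposited table has 1 probe set higher and 2 lower for Tspan17, and 1 in each direction for Tspan11. The sources used here do not say whether the IDs follow the order of exons.

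**Figure D3:**
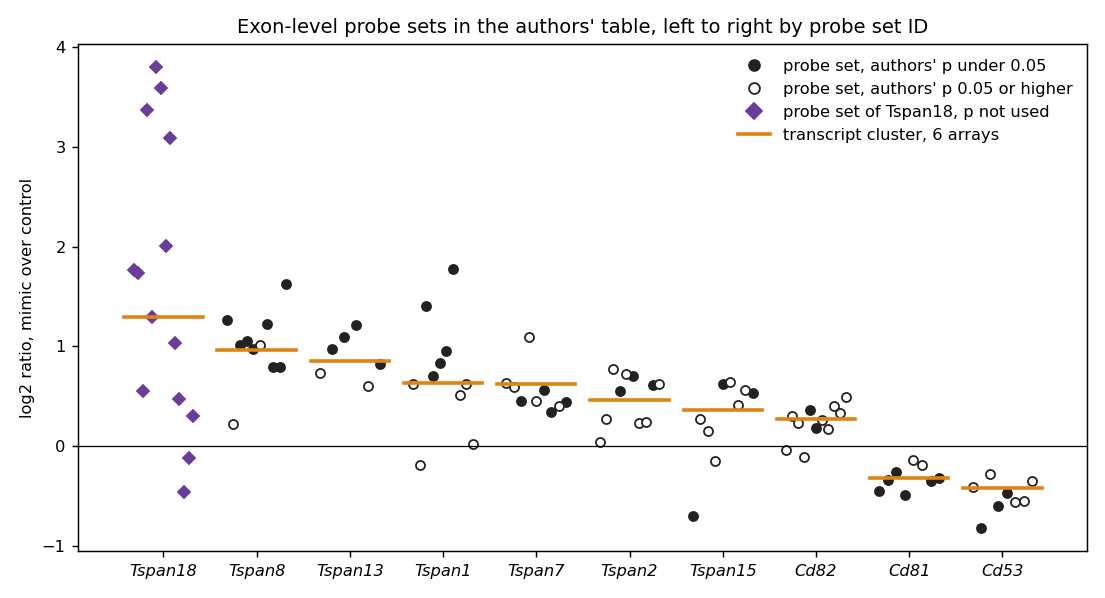
Log2 ratio (mimic over control) of each exon-level probe set in the authors' deposited table for Tspan18 (purple diamonds, p not used) and the 9 genes past the threshold, ordered within a gene by probe set ID. Filled points have the authors' p under 0.05, open points do not, and the orange line is the fold change of the transcript cluster over 6 arrays. The Tspan18 points span 0.73 to 13.9 as ratios, and all Cd81 and Cd53 points lie below 0.

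Several of these genes are neighbours in the genome, and the values of neighbours are set side by side here without a test. In the RefSeq gene order, no protein-coding gene lies between Tspan18 and Cd82 (chromosome 2), which had ratios of 2.46 and 1.20. None lies between Tspan32 and Cd81 (chromosome 7), with log2 fold changes of 0.25 and -0.32, or between Tspan11 and Tspan9 (chromosome 6), with -0.08 and -0.09. Tspan4 and Cd151, with 1 gene between them, had 0.08 and -0.08.

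The promoters of 2 risen genes and of Cd81, which fell, are shown to let their base make-up be compared, as the 250 bases before the RefSeq start in GRCm38.p6. They lie at chr10:115817034-115817283 on the plus strand for Tspan8, chr12:36042479-36042728 on the minus strand for Tspan13 and chr7:143052500-143052749 on the plus strand for Cd81. Capitals mark matches, on either strand, to the TATA box (TATAAA), the GC box (GGGCGG), the CCAAT box, the E-box (CACGTG) and the site of the AP-1 factors (TGANTCA).
Tspan8: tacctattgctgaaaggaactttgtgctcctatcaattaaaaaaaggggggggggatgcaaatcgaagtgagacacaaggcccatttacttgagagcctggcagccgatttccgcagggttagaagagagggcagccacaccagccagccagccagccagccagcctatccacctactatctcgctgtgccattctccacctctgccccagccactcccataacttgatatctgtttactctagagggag
Tspan13: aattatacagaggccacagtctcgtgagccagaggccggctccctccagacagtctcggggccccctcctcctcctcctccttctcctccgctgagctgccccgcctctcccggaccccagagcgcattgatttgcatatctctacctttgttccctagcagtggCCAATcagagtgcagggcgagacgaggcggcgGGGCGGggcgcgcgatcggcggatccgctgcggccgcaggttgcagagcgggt
Cd81: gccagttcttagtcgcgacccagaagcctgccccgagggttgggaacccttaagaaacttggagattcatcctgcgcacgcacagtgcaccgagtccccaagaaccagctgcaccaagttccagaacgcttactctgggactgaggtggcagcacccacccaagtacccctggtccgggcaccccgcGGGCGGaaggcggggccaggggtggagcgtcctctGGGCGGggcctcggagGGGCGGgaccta
The Tspan8 window holds none of the 5 motifs and 4 CpG pairs, that of Tspan13 holds 1 GGGCGG, 1 CCAAT and 21 CpG pairs, and that of Cd81 holds 3 GGGCGG and 16 CpG pairs. Windows were found for 26 of the 27 genes, 36 in all, and the gene without one was Tspan18. GGGCGG occurred in 16 of the 36 (44.4%), beside 32.7% of 32851 windows of all genes, and CCAAT in 11 (30.6%), beside 33.8%. TATAAA occurred in 1, TGANTCA in 1 and CACGTG in 2 of the 36, beside 12.4%, 6.75% and 6.02% of all windows. None of the 5 strings contains another, and matches that overlapped were each counted. The median window of the family had 9.5 CpG pairs, beside 6 for all. A match is a string of letters and no measured binding, and genes with several starts give several windows.

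Of 60 measured genes on lists of tetraspanin partners, which include tetraspanins with other names, 2 rose and 7 fell. That is 15% in all, beside 11.7% called among all genes. The lists were chosen with earlier results of these data known, so this comparison is a description. The log2 fold changes of the 60 genes had a median of 0.01, with 33 above 0 and 27 below. Of 7 integrin subunits, Itga3 fell. It encodes the chain that pairs with Itgb1 in a laminin receptor bound by CD151. Its log2 values were 9.95, 9.90 and 9.92 with the miR-15a-3p mimic and averaged 10.81 with the control mimic, a log2 difference of -0.89 ± 0.06 (SE; adjusted p = 4.9e-05 by limma). Itgb1 had -0.12 and did not pass (adjusted p = 0.27), but passed in 1 of 14 alternatives, another variance prior (0.022). Of 12 immunoglobulin-domain and other surface partners, Cldn1, a claudin that binds CD81 in human liver cells, fell (-0.70, limma adjusted p = 0.00039) and Cd44, the hyaluronan receptor, rose (0.30, adjusted p = 0.016). The call of Cd44 was lost without mimic replicate 3 or control replicate 3.

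Of 8 measured ADAM proteases and ADAM10 substrates, Adam17, the main shedding enzyme of tumour necrosis factor, fell with a log2 fold change of -0.41 (limma adjusted p = 0.0033). Of 17 exosome and multivesicular body genes, 1 fell, Sdc2, a syndecan (-0.41, adjusted p = 0.0034), and the other 16 did not pass. Of 4 genes of the norrin receptor complex, in which Tspan12 acts, Fzd4 fell (-0.49, adjusted p = 0.0034). Of 5 genes of store-operated calcium entry, Stim1 fell (-0.44, adjusted p = 0.013) and Stim2 rose (0.38, adjusted p = 0.0087), while Orai1 had -0.22 and did not pass (0.21). Stim1 was not called without control replicate 3 (adjusted p = 0.056), and Orai1 was called without control replicate 2.

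Tetraspanins with other names lie outside the rule used here, and 4 of them stood on a list with other uroplakins. Upk1b, a uroplakin of the family, had a log2 fold change of 0.22 (limma adjusted p = 0.076), and Upk1a (-0.01), Prph2 (0.04) and Rom1 (0.04) did not pass either. Upk3b, which pairs with Upk1b in bladder epithelium, fell with a log2 fold change of -1.40 (limma adjusted p = 7.5e-06).

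**Figure D4:**
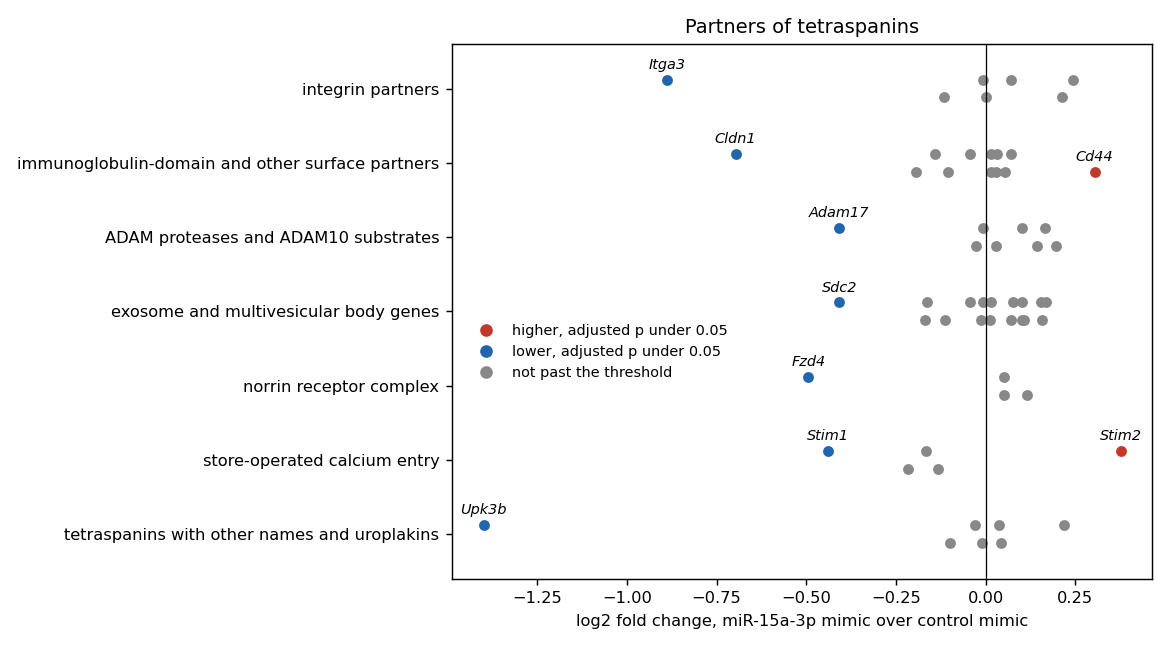
Log2 fold change (miR-15a-3p mimic over control mimic) of the measured partner genes in 7 lists, 1 point per gene, with named points past the limma threshold (red higher, blue lower). Most points lie near 0, the 2 red ones are Cd44 and Stim2, and the lowest is Upk3b at -1.40.

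Markers of the cell types that an ovarian culture could hold were in part called too, beside 6.09% of all genes called higher and 5.63% lower. Of 7 epithelial and mesothelial markers 3 rose (Krt8, Krt18 and Krt19) and 3 fell (Krt7, Wt1 and Lrrn4), with list means of 9.29 to 9.42 on the mimic arrays and 9.36 to 9.39 on the control arrays. Of 6 granulosa markers Fst and Inhbb fell (list means 6.55 to 6.67 against 6.78 to 6.88). Of 6 endothelial markers Tek fell, with a log2 fold change of -0.52 (list means 6.16 to 6.26 against 6.25 to 6.31). The other 5 endothelial markers were not called and moved in both directions, and the median log2 fold change of that list was 0.02. Of 5 fibroblast markers Pdgfra rose while Dcn and Lum fell (9.19 to 9.26 against 9.29 to 9.31). In bulk RNA, fewer cells of a type and less RNA per cell cannot be told apart, and the part of these markers in the tetraspanin changes was not tested. With no detection call, absence of a marker could not be told from a low value.

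**Figure D5:**
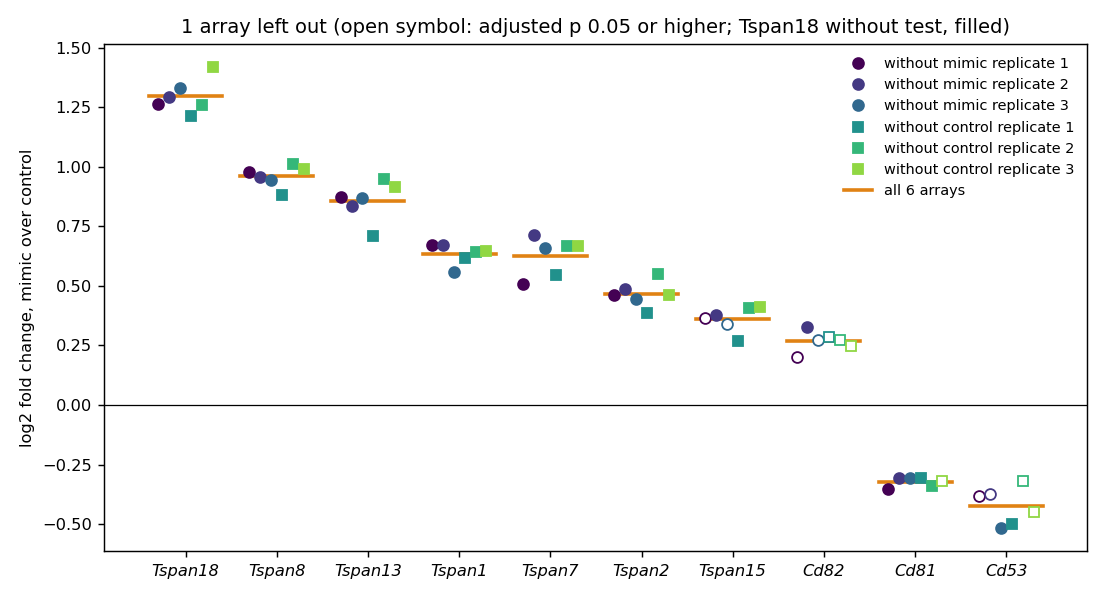
Log2 fold change of Tspan18 (no test, all symbols filled) and of the 9 tetraspanin genes past the threshold with all 6 arrays (orange line) and with 1 array left out (circles, a mimic array; squares, a control array), open where the adjusted p was 0.05 or higher. Tspan8, Tspan13, Tspan1, Tspan7 and Tspan2 stay filled in all 6 fits, while Cd82 is filled in 1 and Cd53 in 2.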

How the data were processed

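The per-array values are log2 values of 35556 transcript clusters, summarised and normalized by the authors, and the log2 scale was read from their range. Partek, Affymetrix Expression Console, MAS5 and RMA are named by the submitters' processing notes without versions or roles, and no source used here gives the annotation build. The authors' deposited table of 241419 exon-level probe sets gives an unadjusted p-value and a linear ratio per probe set, and F statistics and sums of squares (scores), per the file headers. A second deposited file, the authors' list of falls, has 1768 probe sets with a p-value and a signed fold change (score). The variance of the deposited contrast is 0.833 times the error variance, the value for 2 against 3 arrays, where 3 against 3 would give 0.667, so 1 array may be missing from that table.

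A cluster took its name from the probe sets numbered from its own ID up to that of the following cluster. Over 17009 clusters with at least 4 probe sets, the changes in both tables correlated across clusters, which are not independent replicates, with r = 0.928 for the own interval and 0.0773 and 0.0762 for the next and previous one. Symbols were updated through the RefSeq gene table of GRCm38.p6, which gave 1 symbol for 24115 clusters, and the cluster with the highest mean stood for a gene. All 27 tetraspanin symbols were the same as in the file.

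The test was limma's lmFit and eBayes (limma 3.58.1, R 4.3.3) on the log2 values of all 6 arrays, with no filter and no block, two-sided, with p-values adjusted by Benjamini and Hochberg's method over all genes and a threshold of 0.05. Ratios and fold changes have the mimic on top. The code was tested on simulated data. Named genes were all tetraspanins, up to 4 called members of each partner list with the smallest adjusted p, Adam10, Itgb1 and Orai1, and called cell type markers. Members and lists were chosen with earlier results of these data known. Alternatives were other scalings, filters on dim genes, another variance prior, the replicate number as a block, other cluster and symbol rules, and each array left out.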

Additional observations from a re-analysis of the deposited data

How the results depend on the processing

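The count of 9 tetraspanin genes past the threshold, Tspan18 aside, was 9 after quantile normalization, median centring, the milder filter on dim genes, averaging of clusters and with the file's own symbols. It was 10 with the stricter filter, which left 21 tetraspanins, and 10 with another variance prior (eBayes with trend and robust). Among all genes tested, 27.8% passed with the stricter filter and 15.1% with that prior, beside 11.7% in the main fit. The share was 14.8% after quantile normalization and 17.8% with the milder filter. With the replicate number as a block the tetraspanin count was 8, Cd82 being lost, and 1727 genes passed among all, against 2476. Same-numbered arrays of the 2 groups deviated from their group means with correlations of -0.05, -0.28 and 0.04 across genes, so the numbers were not taken as pairs. Differently numbered arrays had correlations from -0.30 (mimic 3 with control 1) to 0.33 (mimic 2 with control 1), and the labels name no batch. Without 1 array the count lay between 6 and 8, with 5 to 7 higher and 0 to 2 lower: without mimic replicate 1 or 2 or control replicate 2, 1 gene was lower, and without control replicate 3, 0 were. The count over all genes lay between 1280 (without control replicate 3) and 2057, with 1547 without mimic replicate 3, and the median log2 fold change of all 27 genes between 0.05 and 0.10. Partner genes past the threshold numbered 15, against 9, with the other variance prior, and 7 to 10 without 1 array. No called tetraspanin or partner gene named in the text changed sign under these alternatives, which were not run for the cell type markers one by one. Tspan32 passed with genes of a mean log2 value of at least 6 alone, Cd9, Tspan17 and Adam10 with genes at or above the median alone, Cd9, Adam10 and Itgb1 with the other variance prior and Orai1 without control replicate 2, while Tspan1 fell outside both filters and Tspan18 outside the stricter one. The filters test fewer genes, and the cause of the other changes was not tested. Signal over background is not known, which limits what can be said of dim genes such as Tspan1.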
